A study of Mus musculus with 6 samples.

Results

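Non-SMC is the cell type label of 3 primary cell lines from mouse lung tumours, which are described here on their own. That label alone selected them, and they make up 3 of the 6 samples of the series. The labels do not spell out the abbreviation SMC, and they pair each non-SMC line with an SMC line that is not described. The lines are called lines 1, 2 and 3 after their replicate numbers. Per the labels' protocols they were grown out of excised small cell lung carcinomas of C57BL/6J mice with conditional alleles that include Rb1 (labelled Rb1L/L), in culture medium with fetal bovine serum and antibiotics. All 3 lines share this genotype, strain and medium, and the labels record no further treatment. Lines 1 and 3 are labelled female and line 2 male. The labels give neither the age of the mice, nor the agent that deleted the alleles, nor whether a line grew from 1 cell, so each line stands for 1 culture of unstated clonality.

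Small cell lung carcinoma is a neuroendocrine tumour in which tumour suppressors including RB1 are commonly lost, and mouse lung tumours made by deleting such genes resemble it. Its classic cells express granins and synaptic vesicle proteins. Other cells from such tumours grow attached to the dish and express mesenchymal genes such as vimentin. Mesenchymal cells make collagens, matricellular proteins such as osteopontin (Spp1) and SPARC, and a large contractile actin cytoskeleton. Epithelial cells are joined by E-cadherin and EPCAM and are built on simple keratins.

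Total RNA of each line was hybridised once, with 1 dye, to an Agilent whole-genome array. The deposited log2 values give a level for 18737 named genes, each represented by its brightest probe, and rank 1 is the brightest gene of an array. A gene was called measured where its probe was well above background by the scanner software. Probe brightness depends on how well each probe hybridises, so a rank orders signals and not amounts of transcript between genes. The share of probes measured was 65.3% in line 1, 68.3% in line 2 and 64.1% in line 3, and no probe was saturated. With 1 array per line there was no test between lines, and the number of arrays limits the precision. Spots that carry the same probe on an array had a median SD of 0.0790 to 0.0888 on the log2 scale, from processed signals. Between lines, the median SD of the deposited values was 0.585 over 151 such probes. The spot SD holds no variation between hybridisations, arrays or slides, so the 2 values do not compare line differences with technical noise.

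Line 1 stood apart from the other lines. Over the 12377 genes measured on all 3 arrays, the log2 levels of lines 2 and 3 correlated at r = 0.923 across genes, those of lines 1 and 3 at 0.892 and those of lines 1 and 2 at 0.862. Genes are not independent replicates, and these values are a description. Line 1 lay on a slide of its own and lines 2 and 3 shared a slide, so slide and line 1 cannot be told apart. The sexes on the labels were matched by Xist, the X inactivation transcript, at 13.47, 1.16 and 13.78, and by the Y-linked Eif2s3y at 1.68, 10.25 and 0.89. Xist was high in the female lines and not well above background in line 2, and Eif2s3y was measured in line 2 alone. The targeted gene Rb1 gave signal in every line, at 6.99, 8.63 and 6.73 in lines 1, 2 and 3. The position of its probes on the floxed part of the gene is not known here, so the levels check nothing about the deletion.

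The brightest signals of all 3 lines came from the translation machinery, histones and the cytoskeleton. Of the 100 brightest genes of each array, 76 were shared by all 3 lines, among them 46 ribosomal protein genes and 7 histone genes. The ribosomal gene Rps18 ranked first on every array, at 18.58 each time because equal ranks receive equal values in a quantile-normalised table. Rps2, Rps23, Fau and Rpl7a followed within the first ranks, together with the histone genes H2ac1, H2ac23, H2aj, H2ac10 and H2ac20. Probes of near-identical histone and ribosomal gene copies may share signal, so the single gene names are uncertain. Lrrc58 and the calcium-binding protein gene S100a6 were the only ones of the first 25 that encode neither a histone nor a protein listed with the ribosome. S100a6 was at 17.77, 17.41 and 17.61 in lines 1, 2 and 3 and ranked 13, 26 and 19.

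Counts of list members measured on all 3 arrays are to be read against 66.1% of all named genes, and counts in the brightest 10% by rank on all 3 arrays against 7.67%. All 67 ribosomal protein genes on the array were measured in every line, and 63 of them lay in the brightest 10% in every line. Of 47 genes listed with the actin cytoskeleton and intermediate filaments, 32 lay in the brightest 10% in every line. They were led by S100a6, the galectin Lgals1, the myosin light chain Myl6 and thymosin Tmsb4x. The list is wider than its name, since S100a6 and Lgals1 encode a calcium-binding protein and a secreted galectin and not filament parts. Of 39 replication and mitosis genes, 20 lay in the brightest 10% in every line, with the helicase subunit Mcm6 at 15.53, 14.87 and 15.21 and the survivin gene Birc5 at 15.04, 14.64 and 14.58. Of 21 glycolysis genes, 10 lay there, and the aldolase gene Aldoa ranked 31, 29 and 9. Of 19 genes of MHC class I presentation, 8 lay there, and B2m, the light chain of the complex, was at 14.45, 15.40 and 15.80.

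Transcription factors common to the lines were led by abundant nucleic acid-binding proteins and by AP-1. Of 557 on the array, 376 (67.5%) were measured in every line and 29 (5.21%) lay in the brightest 10% in every line. The RNA- and DNA-binding protein gene Ybx1 was at 16.29, 16.41 and 16.48, Nme2 at 16.93, 16.40 and 16.17 and the chromatin architecture gene Hmga1 at 15.08, 16.48 and 16.60. These proteins have roles beyond sequence-specific transcription, as does that of Hmgb1. The highest of the classical factors was the AP-1 subunit Junb at 15.08, 15.88 and 15.91 in lines 1, 2 and 3, or 15.63 ± 0.47 (SD, n = 3). AP-1 and related bZIP factors were measured in every line in 39 of 40 cases, and Jund and Atf5 followed Junb. The lipid synthesis regulator Srebf1 was at 13.94, 14.88 and 13.83, the orphan nuclear receptor Nr2f6 at 13.75, 13.86 and 14.08, and Wwtr1, which encodes the Hippo pathway coactivator TAZ, at 13.58, 13.96 and 14.93. Nr2f6 differed by less than 2-fold between any lines, and Wwtr1 and Srebf1 by at most 1.35 on the log2 scale.

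Other families also held bright members. Krüppel-like factors were led by Klf2 at 13.72, 13.28 and 13.32 and Klf6 at 13.23, 13.91 and 14.18, followed by Glis2. In the Hippo, SRF and SMAD group, 19 of 22 were measured in every line, and the BMP signal transducer Smad1 was at 12.79, 13.27 and 13.40 and the common partner Smad4 at 12.84, 12.79 and 12.56. Stat3, the factor downstream of interleukin-6 family receptors, was at 13.05, 13.46 and 13.76, followed by the NF-kB subunit Rela and Irf1. Among basic helix-loop-helix and MYC family genes, 47 of 78 were measured in every line, and the helix-loop-helix inhibitor Id3 was at 13.10, 15.14 and 13.96. Myc was level across the lines at 12.41, 12.67 and 12.40, or 12.49 ± 0.15 (SD, n = 3), and its ranks were 1811, 1550 and 1840. With the mean of its probes in place of the brightest, its mean rank was 2804 instead of 1734. Of the factors that drive epithelial-mesenchymal transition, 9 of 13 were measured in every line and none lay in the brightest 10% in every line: Snai2 was at 12.96, 11.93 and 11.49, Prrx1 at 14.67, 10.78 and 12.10 and Zeb1 at 12.09, 10.74 and 10.87. These 3 were highest in line 1, while the list median was 8.52, 8.50 and 8.47 and no member was assigned to a line by the 8-fold threshold described further on.

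Receptors had adhesion molecules and 1 cytokine receptor at their head. Of 382 on the array, 239 (62.6%) were measured in every line and 16 (4.19%) lay in the brightest 10% in every line. The highest was Tnfrsf12a, the receptor for the cytokine TWEAK, at 15.34, 15.03 and 15.11 in lines 1, 2 and 3, or 15.16 ± 0.16 (SD, n = 3). Adhesion molecules and tetraspanins, which organise integrins in the membrane, came next: Cd63 at 14.86, 14.41 and 14.88, the integrin subunit Itgb5 at 14.31, 14.34 and 15.08 and Cd81 at 13.92, 14.70 and 15.03. Integrins and adhesion receptors held 8 of the 16 receptors in the brightest 10%. Ncam1, an adhesion molecule used to mark neuroendocrine tumours, was bright in every line at 13.73, 13.71 and 13.11. The Hedgehog signal transducer Smo was at 13.74, 13.03 and 13.02 and the type 2 TGF-beta receptor Tgfbr2 at 12.46, 13.56 and 13.69.

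No receptor tyrosine kinase reached the brightest 10% in every line, although 29 of 50 were measured in every line. The ephrin receptor Epha2 was the highest of them at 11.91, 12.84 and 13.40, followed by the Wnt coreceptor Ryk at 12.09, 11.46 and 11.58 and the hepatocyte growth factor receptor Met at 12.02, 10.96 and 12.11. G protein-coupled receptors had the lowest share of the receptor groups measured in every line, 41 of 112, and the latrophilin Adgrl1 led them at 13.67, 15.18 and 14.56. Of the Wnt, Notch and Hedgehog receptors, 22 of 24 were measured in every line, with Fzd2 and Fzd1 behind Smo. Axon guidance receptors were led by Plxnb2 at 12.35, 12.51 and 12.66 and Nrp2 at 13.66, 11.56 and 12.50.

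Secreted products held the most bright members of the 3 classes. Of 430 on the array, 288 (67.0%) were measured in every line and 42 (9.77%) lay in the brightest 10% in every line. Lgals1 led at 17.80, 17.01 and 17.24 and the collagen-binding protein gene Sparc was next at 16.16, 16.11 and 16.55, or 16.27 ± 0.24 (SD, n = 3). Matricellular and matrix glycoproteins held 12 of the 42, and Fbln2, at 15.22, 16.18 and 15.81, and Mfge8 followed Sparc in that group by their lowest rank over the arrays. Osteopontin, Spp1, was at 15.87, 15.27 and 17.41 and was brightest in line 3, at ranks 136, 221 and 28. Proteases, inhibitors and crosslinkers held 11 of the 42, with the procollagen processing enhancer Pcolce at 16.80, 15.89 and 15.99, Timp2 at 16.26, 15.81 and 16.32 and Timp1 at 15.87, 14.83 and 15.91. Timp1 was lowest in line 2, and the others lay within 2-fold across the lines.

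**Figure D1:**
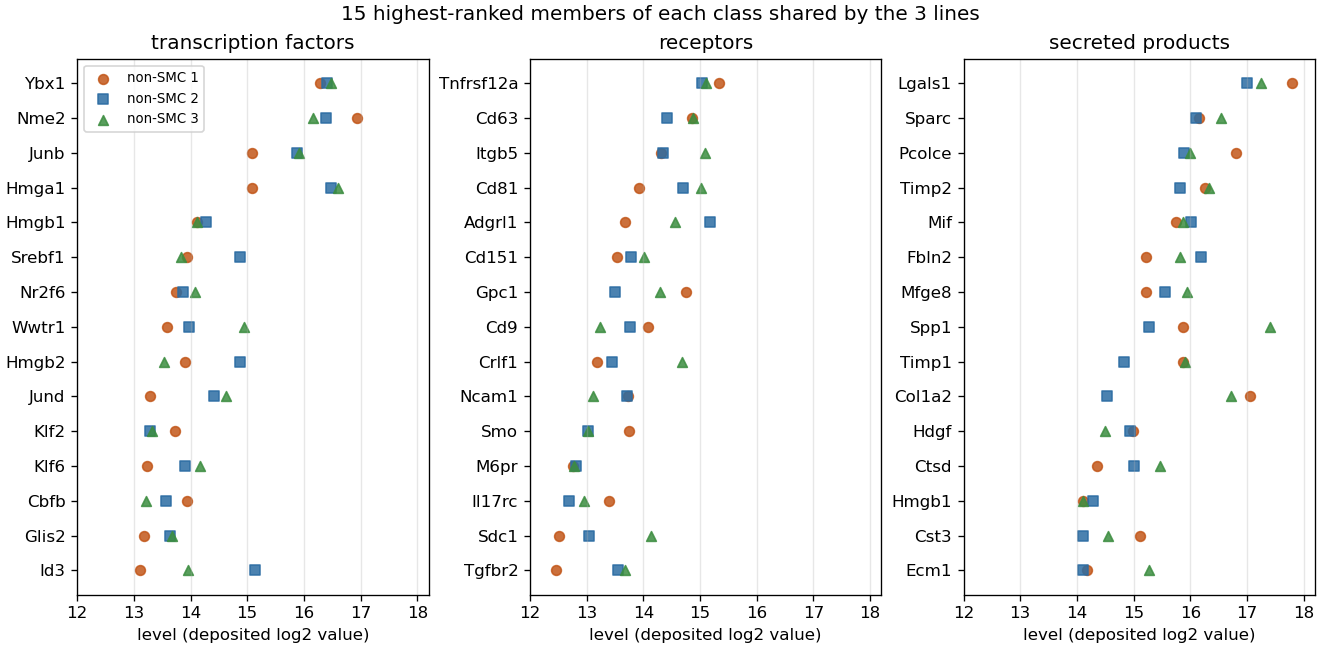
Level of the 15 highest-ranked transcription factors, receptors and secreted products in the 3 non-SMC lines, as deposited log2 values on the horizontal axis, 1 symbol per array and gene. Genes are ordered from the top by their lowest rank over the arrays; Tnfrsf12a and Sparc lie close together in the 3 lines, while Col1a2 and Spp1 spread by more than 2 log2 units.

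Collagen chains were measured in every line in 25 of 31 cases. Col1a2, a chain of type I collagen, was at 17.05, 14.52 and 16.72 in lines 1, 2 and 3, lowest in line 2. Its partner Col1a1 was at 11.29, 14.17 and 15.01 and lowest in line 1 instead, and Col3a1 was at 15.49, 13.19 and 13.45. The order of the lines thus differed between the chains of one protein. Growth factors were led by Hdgf, Csf1 and Vegfa, with Csf1, the macrophage growth factor, at 13.79, 13.17 and 13.85 and Vegfa at 12.99, 13.14 and 13.41. Of the TGF-beta superfamily and its antagonists, 20 of 29 were measured in every line, led by the follistatin-like Fstl1 at 14.49, 13.96 and 14.76 and Tgfb3 at 13.35, 12.98 and 12.91. Of 64 cytokines and chemokines, 33 were measured in every line. Mif, the macrophage migration inhibitory factor, was at 15.74, 16.01 and 15.87 and the chemokine Cxcl12 at 14.75, 13.55 and 14.67. Wnt ligands and antagonists had 17 of 34 members measured in every line and were led by the antagonist Sfrp2 at 13.64, 12.73 and 14.19.

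The marker lists place mesenchymal genes in all 3 lines. Of 23 mesenchymal and fibroblast genes, 21 were measured in every line and 7 lay in the brightest 10% in every line, with a list median of 11.66, 10.48 and 12.10 in lines 1, 2 and 3 against 7.29, 7.68 and 7.61 over all genes. Vim, the intermediate filament of mesenchymal cells, was at 16.68, 15.68 and 15.20 and ranked 66, 160 and 227. Smooth muscle and pericyte genes were measured in every line in 14 of 20 cases, with Acta2 at 14.29, 15.52 and 12.60, while Myh11, the myosin of mature smooth muscle, was at 2.04, 4.76 and 1.97 and measured in line 2 alone. Endothelial genes were measured in every line in 8 of 20 cases, and their defining members Pecam1 at 1.03, 0.78 and 1.02 and Cdh5 at 1.03, 0.97 and 1.16 were not well above background in any line. In bulk RNA, fewer cells of a type and less RNA per cell cannot be told apart, which holds for every list below.

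**Figure D2:**
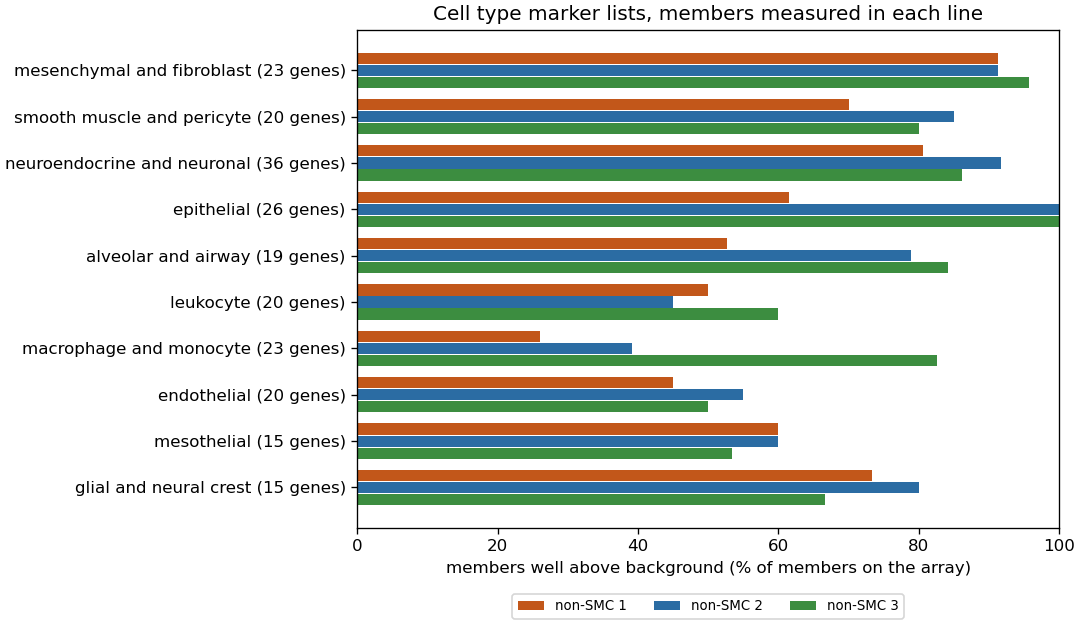
Share of the members of 10 cell type marker lists that were well above background in each non-SMC line, in percent of the members on the array (horizontal bars, 1 array each). All 26 epithelial genes were measured in lines 2 and 3 and 16 of them in line 1, and 19 of 23 macrophage genes were measured in line 3 against 6 in line 1.

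What varied among the lines was examined by size alone, since no test was possible. Over genes measured on all 3 arrays, the median distance between the highest and the lowest line was 0.86 on the log2 scale, 57.1% of genes lay within 2-fold, and 1089 genes (8.80%) spanned 8-fold or more. A gene was then assigned to a line where that line differed 8-fold or more, in 1 direction, from both other lines. Among 15009 genes measured on at least 1 array, line 1 had 111 genes above (0.74%) and 607 below (4.04%). Line 2 had 516 above (3.44%) and 70 below (0.466%), and line 3 had 270 above (1.8%) and 62 below (0.413%). Of these 1636 assignments, 1381 met the threshold when signals not well above background were set to the lowest measured level of their array, and 682 concerned genes measured in all 3 lines. After normexp background correction, 418 of them met it. Each count rests on both comparison lines: without line 3, line 1 had 1294 genes below, which are then the genes line 2 has above, and without line 2 it had 1057, which are then those of line 3. With line 1 left out, line 2 had 670 genes above line 3 and line 3 had 423 above line 2. The gene lists were chosen with earlier results of these data known. List counts below, set beside the share of all genes, are therefore descriptions and test nothing. Each fold below is against the nearer of the other lines, and "at least" marks a gene not well above background on a dim side, taken at that lowest measured level or its own, whichever was higher.

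**Figure D3:**
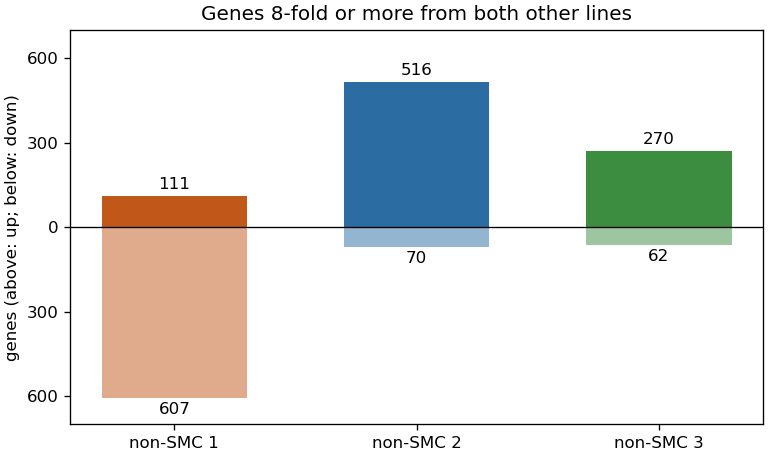
Number of genes 8-fold or more above (upward bars) or below (downward, paler bars) both other lines, for each non-SMC line, among 15009 genes measured on at least 1 array. Line 1 has 607 genes below the others, and lines 2 and 3 have mostly genes above.

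Line 1 had low or undetected epithelial genes that were bright in lines 2 and 3. Of 26 epithelial genes, 21 were assigned to line 1 as lower, where 4.04% of all genes were, and the list median was 3.34, 10.52 and 10.67 in lines 1, 2 and 3. Without line 3 the count was 22 and without line 2 it was 24. The simple keratin Krt18 was at 8.07, 17.27 and 16.76 in lines 1, 2 and 3, 413-fold lower in line 1, and its partner Krt8 was at 8.56, 16.27 and 16.13. The keratin Krt7 was at 9.88, 15.95 and 16.63. Epcam, the adhesion molecule used to sort epithelial cells, was at 2.72, 11.90 and 11.67 and so at least 495-fold lower in line 1. The tight junction genes Cldn7 and Cldn3 were 479-fold lower and 293-fold lower, and E-cadherin, Cdh1, was at 1.63, 8.13 and 8.44. Levels of these genes in lines 2 and 3 lay close to each other. Their distance from line 1 follows from the choice, since genes assigned to line 1 as lower were named. Of the 21 genes, 13 were also measured in line 1. Of 11 mesothelial genes measured in any line, 7 (63.6%) were assigned to line 1 as lower, some of them the same keratins. The mesothelial list as a whole did not set line 1 apart. Its median was 2.77, 3.32 and 2.69 in lines 1, 2 and 3, and 9, 9 and 8 of its 15 members on the array were measured. The mesothelin gene Msln was at 9.20, 14.97 and 15.06.

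Promoters of epithelial genes are known to carry E-box sequences that repressors of the SNAI and ZEB families can bind. The RefSeq promoter windows (assembly GRCm38.p6, 300 bases around each annotated start) were searched on both strands for the E-box CACCTG, which 6098 of 27025 genes (22.6%) hold. It lay in the window of 13 of the 15 epithelial genes that had one, including 12 of the 13 with a window among those lower in line 1. Parts of the windows of Epcam (chr17:87635779-87635998, plus strand) and Krt8 (chr15:102004323-102004472, minus strand) are shown because both genes were bright in lines 2 and 3 and far dimmer in line 1; capitals mark the E-box on either strand.
Epcam: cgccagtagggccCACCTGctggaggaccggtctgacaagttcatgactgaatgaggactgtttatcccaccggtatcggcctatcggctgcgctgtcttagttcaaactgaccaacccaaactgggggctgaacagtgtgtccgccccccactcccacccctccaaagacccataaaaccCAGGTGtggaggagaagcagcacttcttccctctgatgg
Krt8: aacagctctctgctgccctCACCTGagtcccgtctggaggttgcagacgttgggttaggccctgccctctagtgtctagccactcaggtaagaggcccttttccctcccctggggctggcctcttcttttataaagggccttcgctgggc
The last 20 bases of each sequence follow the annotated start. A match is a description of the letters and neither a bound site nor a cause. Of the promoters of 21 interferon-stimulated genes, 4 (19.0%) hold the same E-box, and 3 of 10 (30.0%) do among those lower in line 1.

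Many interferon-stimulated genes were also low in line 1. Of 28, 13 were assigned to line 1 as lower, where 4.04% of all genes were, and the list median was 7.98, 10.63 and 10.49. The count was 10 at 16-fold, 9 with normexp and 9 among genes measured on all 3 arrays. The ubiquitin-like Isg15 was at 9.45, 14.12 and 13.77 in lines 1, 2 and 3, and Bst2, which tethers viruses to the cell surface, was at 8.93, 13.73 and 14.02. Oas1a, an antiviral sensor of double-stranded RNA, was at 0.78, 10.98 and 10.72 and at least 327-fold lower in line 1, where it was not well above background. Usp18, a brake on interferon signalling, was at 4.34, 11.40 and 10.48, and Rsad2, which encodes viperin, at 2.20, 9.13 and 8.31. Not every member followed this order: Ifi35 was at 10.71, 11.34 and 11.53, within 2-fold in all lines, and Gbp2 was at 10.90, 9.81 and 10.67 and highest in line 1. Related genes that the list does not hold went the other way. Gbp2b was at 8.93, 0.72 and 0.74 and Ifi209 at 9.58, 2.43 and 1.36, both assigned to line 1 as higher. Of the heavy chains of MHC class I, H2-K1 was at 12.80, 14.77 and 15.50 and lower in line 1 by less than 8-fold.

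The promoter windows of these genes were searched on both strands for GAAA, any 2 bases and GAAA again, the core of the interferon-stimulated response element. It lay in 13 of the 21 interferon-stimulated genes with a window and in 1079 of 27025 genes (3.99%) overall. Among the genes lower in line 1, 6 of the 10 with a window held it. Windows of 4 of these 6, from GRCm38.p6, are shown because they carry the repeat in genes that were 8-fold or more lower in line 1: Isg15 (chr4:156200799-156200948, minus strand), Oas1a (chr5:120907506-120907655, minus strand), Ifit3 (chr19:34583329-34583548, plus strand) and Rsad2 (chr12:26456433-26456582, minus strand). Capitals mark the repeat, including overlapping copies and its reverse complement.
Isg15: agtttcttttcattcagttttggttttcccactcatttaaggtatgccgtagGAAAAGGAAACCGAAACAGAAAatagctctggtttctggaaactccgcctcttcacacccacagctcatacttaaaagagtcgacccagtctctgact
Oas1a: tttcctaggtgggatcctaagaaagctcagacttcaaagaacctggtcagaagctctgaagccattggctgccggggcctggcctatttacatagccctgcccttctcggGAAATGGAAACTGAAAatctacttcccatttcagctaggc
Ifit3: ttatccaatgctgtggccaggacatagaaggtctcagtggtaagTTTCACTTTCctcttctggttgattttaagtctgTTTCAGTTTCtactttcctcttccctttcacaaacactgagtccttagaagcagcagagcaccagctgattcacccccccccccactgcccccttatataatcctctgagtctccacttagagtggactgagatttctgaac
Rsad2: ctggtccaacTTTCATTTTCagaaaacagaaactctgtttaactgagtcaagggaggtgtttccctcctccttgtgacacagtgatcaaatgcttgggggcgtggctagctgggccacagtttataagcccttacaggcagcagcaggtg
The window of Isg15 holds 3 overlapping matches and that of Oas1a 2, and Ifit3 holds 2 separate ones. Ifit3, which encodes an RNA-binding antiviral protein, was at 6.38, 11.80 and 11.86 in lines 1, 2 and 3. Oas2, another sensor of the same family as Oas1a, was at 0.98, 8.88 and 8.88.

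Among the other genes low in line 1, several were bright in both other lines. Serpinh1, the chaperone of collagen folding, was at 2.53, 13.67 and 12.71 in lines 1, 2 and 3, and not well above background in line 1, which had the highest Col1a2 level. Serpinh1 was represented by 1 probe. The small leucine-rich proteoglycan Dcn was at 4.48, 14.14 and 14.26, 806-fold lower in line 1, and thereby the 1 mesenchymal marker assigned to line 1 as lower. The cyclophilin Ppic was at 2.29, 13.62 and 14.85 and the RNA-binding protein gene Zfp36l1 at 2.20, 12.87 and 13.27. The lung chemokine Cxcl15 was at 0.95, 11.43 and 12.66, and Gas6, a ligand of TAM receptors, at 4.41, 12.41 and 12.72. Of the members measured in any line, 40 of 390 secreted products (10.3%) and 20 of 325 receptors (6.15%) were assigned to line 1 as lower, beside 4.04% of all genes, including Procr, the endothelial protein C receptor, at 1.54, 9.40 and 11.53. Of 475 transcription factors, 33 (6.95%) were, including the epithelial regulator Grhl2 at 2.88, 10.95 and 9.99, the imprinted Plagl1 at 0.86, 9.68 and 8.01, the intestinal factor Cdx2 at 0.97, 7.93 and 9.36 and the hypoxia factor Epas1 at 2.70, 9.62 and 11.71.

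Genes above in line 1 were fewer, at 0.74% of all genes. Of 475 transcription factors measured in any line, 14 (2.95%) were assigned to line 1 as higher: the homeobox gene Dlx2 was at 10.54, 2.44 and 3.14, or 169-fold higher, the Hedgehog effector Gli2 at 7.72, 2.12 and 0.93 and the osteoblast factor Sp7 at 6.30, 0.99 and 0.96. Of 325 receptors, 9 (2.77%) were, among them Il1rl1, the interleukin-33 receptor, at 13.68, 7.07 and 8.70 and the neurotrophin receptor Ntrk3 at 9.09, 4.59 and 3.81. Of 390 secreted products, 15 (3.85%) were, among them the guidance ligand Slit3 at 11.26, 4.75 and 5.58 and Dkk3, of the Dickkopf family, at 12.36, 7.22 and 5.95. Of 22 mesenchymal genes measured in any line, the 3 assigned to line 1 as higher were Col5a2, Postn and Ddr2, and Col5a2 was at 14.40, 10.04 and 9.52. Outside the classes, the guanylate-binding protein gene Gbp2b was at 8.93, 0.72 and 0.74 and the cation channel gene Trpm2 at 8.45, 0.58 and 0.58, both measured in line 1 alone.

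**Figure D4:**
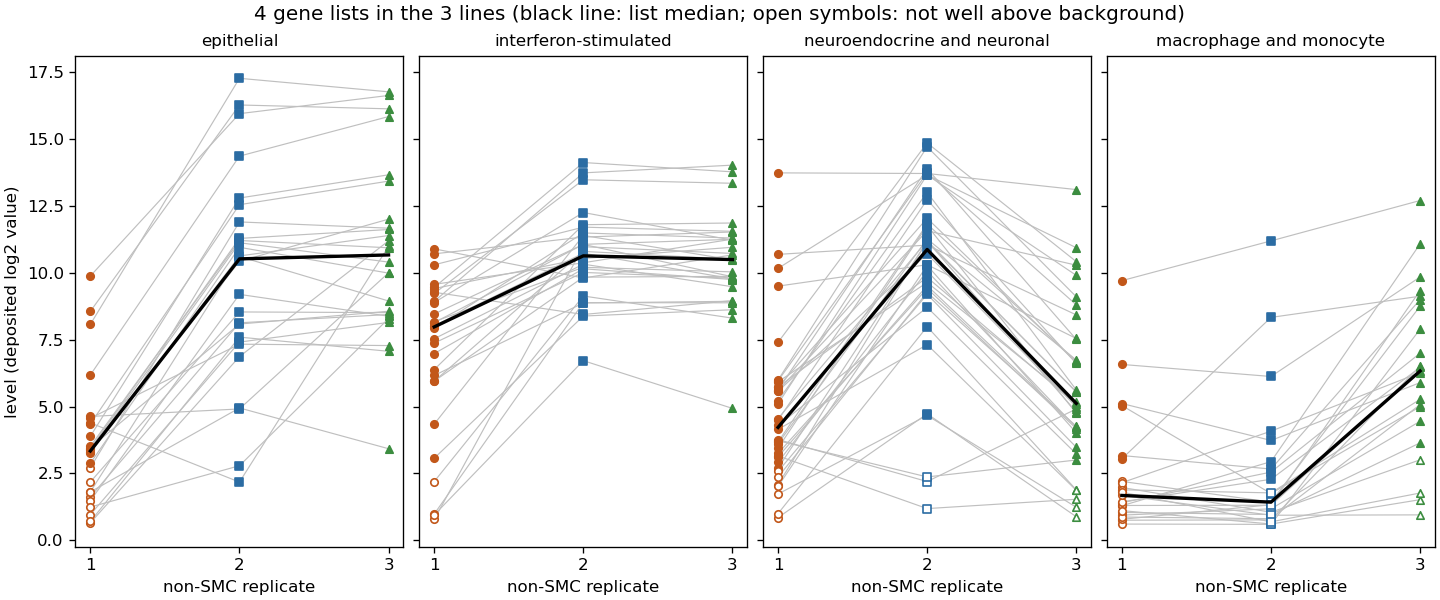
Level of each member of 4 gene lists in the 3 non-SMC lines (vertical axis, deposited log2 value; 1 array per line; grey lines join a gene, the black line joins list medians, and open symbols were not well above background). Epithelial and interferon-stimulated medians are lowest in line 1, the neuroendocrine median is highest in line 2 (10.87) and the macrophage median is highest in line 3 (6.33).

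Many neuroendocrine genes were higher in line 2, beside its mesenchymal and epithelial genes. Of 36 neuroendocrine and neuronal genes, 27 were assigned to line 2 as higher, where 3.44% of all genes were, and the list median was 4.22, 10.87 and 5.12 in lines 1, 2 and 3. Their summed signal was 18054, 175938 and 16970 on the linear scale. The granin gene Chga, a marker of neuroendocrine secretory granules, was at 5.97, 13.74 and 8.81. The zinc finger factor Insm1 was at 2.08, 11.18 and 4.80, the monoamine-synthesising decarboxylase gene Ddc at 5.63, 13.89 and 7.51 and the peptide hormone gene Calca at 7.40, 14.85 and 10.42. The prohormone convertase genes Pcsk2 and Pcsk1 were 167-fold higher and 129-fold higher in line 2. Line 3 lay above line 1 for Calca and the lung lineage factors Nkx2-1, at 5.60, 11.57 and 10.28, and Foxa2, at 5.11, 13.66 and 10.94. These were among the 6 of the 36 genes assigned to line 1 as lower, beside 4.04% of all genes. Ncam1, described above, did not separate the lines, and Uchl1, a neuronal deubiquitinase gene, was at 10.69, 11.04 and 8.43 and lowest in line 3.

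Of the transcription factors measured in any line, 24 of 475 (5.05%) were higher in line 2, beside 3.44% of all genes. Mycl, the MYC relative amplified in a subset of small cell lung carcinomas, was at 6.37, 13.91 and 7.10, 112-fold higher in line 2, beside the level Myc described above. The cell cycle factor E2f2 was at 9.98, 16.72 and 10.38, or 81.3-fold higher in line 2. The neural factors St18 and Myt1, both higher as well, were at 3.59, 11.02 and 5.01 and 2.54, 9.76 and 3.99. Of the secreted products, 23 of 390 (5.9%) were higher in line 2, among them the growth factor Igf2, at 2.02, 13.73 and 7.0, and its binding protein Igfbp5 at 3.71, 12.67 and 5.54. Vwf, the 1 endothelial gene assigned to line 2, was at 4.21, 12.89 and 6.22 and not accompanied by Pecam1 or Cdh5. The receptors assigned to line 2 as higher were Gpc3, Ntrk2, Robo3 and Vipr2, and Gpc3 was at 1.00, 8.94 and 2.66. The part that cells of a neuroendocrine type in the culture played in these levels was not tested.

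Low in line 2 were 0.466% of all genes, and 15 of 390 secreted products (3.85%). The collagen VI chain Col6a3 was at 14.05, 4.57 and 11.50, 122-fold lower in line 2, the Wnt antagonist Sfrp1 at 11.87, 5.06 and 10.84 and the growth factor Fgf10 at 9.14, 1.51 and 7.27. The PDGF receptor Pdgfra was at 10.53, 6.15 and 9.76. The prolactin family genes Prl2c3 and Prl2c5 were also low, but near-identical copies share their signal. The progranulin gene Grn was assigned to line 2 by its brightest probe, at 16.47, 9.25 and 15.08, while its other probe gave 12.89, 13.50 and 13.71 in lines 1, 2 and 3, so the probes disagree.

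Many macrophage genes were higher in line 3 than in lines 1 and 2. Of 19 macrophage and monocyte genes measured in any line, 13 (68.4%) were assigned to line 3 as higher, beside 1.8% of all genes. Of 23 on the array, 19, 9 and 6 were measured in lines 3, 2 and 1. All 19 counted genes were thus measured in line 3, and members measured there alone entered the count through line 3. The share is therefore a description and no support for a cell type. In the same list, 1 gene was assigned to line 1 as lower and 1 to line 2 as lower. The list median was 1.68, 1.43 and 6.33, and the summed signal 1063, 2820 and 12811. Lysozyme genes Lyz1 and Lyz2 were at 1.29, 2.94 and 11.08 and at 0.61, 0.60 and 7.89, the lysosomal protease gene Ctss at 0.79, 1.33 and 9.34 and the receptor adaptor gene Tyrobp at 2.20, 1.43 and 8.75. Adgre1, the macrophage antigen F4/80, was at 0.75, 0.77 and 6.52, and the common leukocyte antigen Ptprc was measured in line 3 alone, at 5.08. Csf1r, another macrophage marker, was not particular to line 3. It was assigned to line 2 as lower and so was measured in line 1 as well as line 3. Spi1, the factor that specifies macrophages, was not well above background in any line, at 1.11, 0.61 and 1.52. Of the 13, 2 were measured in all 3 lines, and with normexp background correction 4 genes of the list were assigned to line 3. Cd14, a receptor for bacterial lipopolysaccharide on monocytes, was measured in every line, at 9.71, 11.19 and 12.70. The part that macrophages in the culture played in these levels was not tested.

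Of the secreted products measured in any line, 43 of 390 (11%) were higher in line 3, beside 1.8% of all genes. Of 57 cytokines and chemokines measured in any line, 17 (29.8%) were assigned to line 3 as higher, 9 of them at 16-fold, 6 of them measured in all 3 lines, and 8 with normexp. The chemokine Ccl6 was at 2.72, 1.73 and 11.48, 435-fold higher in line 3, Ccl3 at 1.95, 1.15 and 9.24 and interleukin-1 beta, Il1b, at 0.77, 0.77 and 7.32. Receptors higher in line 3 numbered 14 of 325 (4.31%), led by the scavenger receptor Cd36 at 1.17, 2.52 and 9.80 and the formyl peptide receptor Fpr1 at 1.04, 1.05 and 6.63. The macrophage scavenger receptor Marco was at 3.70, 4.26 and 12.31, and Wfdc17 and Cd52, genes of myeloid and lymphoid cells, were at 1.06, 0.69 and 11.28 and 0.67, 0.69 and 9.87. These genes, like the macrophage markers assigned to line 3, were named because they passed the threshold there, so their shared order follows from the choice. The part of macrophages in them was not tested.

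Line 3 also differed in a few epithelial genes and in patterning genes. The epithelial list medians of lines 2 and 3 were close, at 10.52 and 10.67. Of 26 epithelial genes, 4 were assigned to line 3 as higher, where 1.8% of all genes were. Among them were Krt5 and Krt14, keratins of basal and squamous cells, and Cldn4, and Krt5 was at 4.39, 2.18 and 10.99 in lines 1, 2 and 3. Trp63, the basal cell factor, was at 1.76, 4.25 and 7.33, and the cornified envelope genes Sprr2h and Sprr2d, which have close copies, were at 1.14, 0.86 and 10.13 and 0.88, 1.15 and 10.11. Foxn1, the factor of thymic and hair follicle epithelium, was at 3.15, 2.62 and 9.40 and led the 9 transcription factors higher in line 3. Of 18 HOX genes measured in any line, 8 (44.4%) were assigned to line 3 as lower, beside 0.413% of all genes. They were Hoxb2, Hoxb3, Hoxb4, Hoxb5, Hoxb6, Hoxb7, Hoxb8 and Hoxb9, neighbours in 1 cluster. Hoxb2 was at 10.37, 10.91 and 4.94, Hoxb8 at 9.48, 9.60 and 4.85 and Hoxb6 at 11.74, 12.53 and 8.44. For these genes lines 1 and 2 were close and line 3 lay apart. Lines 1 and 2 differed more for Hoxb5, at 9.51, 11.64 and 5.58. At 16-fold the count was 4 and with normexp 3. The homeobox gene En2 was at 10.84, 10.52 and 5.07 and also low in line 3. Of the HOX genes, 18 of 36 were not well above background in any line, and Hoxa7, at 4.75, 4.42 and 7.89, and Hoxa10, at 1.05, 0.98 and 4.45, were the 2 assigned to line 3 as higher.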

How the data were processed

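Total RNA of 6 primary tumour lines was hybridised to Agilent arrays with 1 dye, and the 3 lines labelled non-SMC were analysed. Spots were read by Feature Extraction 10.7.3.1, per the file headers, which also name build mm9; the submitters' processing notes give version 10.7. The deposited series table holds log2 values with equal quantiles in all columns (median 5.06). The correlation of a column with its array's logged processed signal was at least 0.996, against at most 0.954 for the other columns, which settled scale and direction, and the values are not centred per gene. The deposited processed signal and median spot intensity, and the background flags, came from the scanner files, and per the file headers the processed intensity is background-subtracted and not normalised between arrays. For any other step, details were not given in the sources used here.

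Spots flagged as outliers and control spots were dropped, and spots of a probe were averaged, leaving 41139 probes. A RefSeq table (GRCm38.p6) named 27461 of them by transcript accession, giving 18737 genes (6638 with several probes), and 13678 probes stayed unnamed. The brightest probe over the arrays stood for a gene. All lines were described by level, rank and an 8-fold threshold against both other lines, with no test. Named were the 5 markers, the targeted and sex-linked genes, the 25 brightest shared genes, the 15 leading members of each class, the 3 leading members of each role, up to 4 members per marker or programme list, and per line the 8 genes farthest above and below, with up to 4 members of each class and list. Chga, Adgre1, Csf1r, Spi1, Pecam1, Cdh5, Myh11, Col1a1, Gbp2, H2-K1, Il1b, St18, Myt1 and Ifit3 were chosen after their values were seen, as were the individual HOX genes. Gene lists (1764 of 1813 genes on the array) and members were chosen with earlier results of these data known. A few of these are not reported here. Another probe went the other way for Grn, Epas1 and Vipr2. Alternatives were limma 3.58.1 normexp background correction (offset 50), processed signals over the 75th percentile, other thresholds and each line left out. The call rule was tested on simulated data with changes placed only in genes measured on all 3 arrays. How it calls changes in dimmer genes was not tested. Python 3.11.15 with pandas 2.3.3 was used.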

Additional observations from a re-analysis of the deposited data

How the results depend on the processing

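No paired analysis was possible because only the non-SMC lines are described and no test was made. With ranks taken among all probes, named and unnamed, the brightest 10% on all 3 arrays held 2547 genes, 54 transcription factors and 37 receptors, since the unnamed probes widen it by construction. Genes of lines 1, 2 and 3 above and below both other lines numbered 314 and 1036, 836 and 193, and 546 and 161 at 4-fold, and 54 and 383, 326 and 28, and 147 and 22 at 16-fold. With normexp, whose offset compresses dim signals, they numbered 27 and 168, 150 and 12, and 53 and 9, and 418 of the 1636 assignments remained. Among genes measured on all 3 arrays they numbered 43 and 302, 184 and 41, and 72 and 40. With 1 line left out, so that a single other line was compared, they ranged from 227 to 271 and 1057 to 1294 for line 1, 670 to 1294 and 271 to 423 for line 2, and 423 to 1057 and 227 to 670 for line 3, and 16 to 28 receptors lay in the brightest 10%. Of the lists, the macrophage genes of line 3 numbered 4 with normexp and 2 among genes measured on all 3 arrays. The epithelial genes of line 1 numbered 13 among genes measured on all 3 arrays. The HOX genes of line 3 numbered 4 at 16-fold and 3 with normexp, and its cytokines and chemokines 9 at 16-fold, 8 with normexp and 6 among genes measured on all 3 arrays. Processed signals over the 75th percentile moved the median difference between lines 2 and 3 by -0.13 (log2), and 1506 assignments remained. Dim signals had no order below the lowest measured log2 level, which was 2.37, 2.03 and 2.62 on the 3 arrays.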

Other observations

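The 8 genes farthest above in line 2 were Rhox2a, Xlr4b, Cyct, Xlr3c, Eif2s3y, 1600029I14Rik, Nxf3 and Myh7. The homeobox gene Rhox2a was at 0.64, 11.65 and 0.60 in lines 1, 2 and 3, Xlr4b at 1.00, 10.85 and 1.13, Xlr3c at 1.08, 9.96 and 1.20 and the RNA export factor gene Nxf3 at 0.88, 9.37 and 0.91, and all of these are X-linked. Cyct, the cytochrome c of testis, was at 1.29, 10.21 and 0.69. None of these 8 was well above background in line 1 or line 3. Rhox2 and Xlr genes have close copies, so the single gene names are uncertain.

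YAP and TAZ target genes were measured in every line in 24 of 24 cases, and 4 of them, Birc5, Ccn2, Myof and Ccn1, lay in the brightest 10% in every line, with Ccn2, a matricellular growth factor, at 13.92, 16.52 and 16.26.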
